A study of Vitis vinifera with 6 samples.

Results

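The genes described here are 7 members of the anthocyanin programme of grapevine. They were listed by identifier and not by a limit on their measured values, but with earlier results of these data known. They comprise MYBA1 (VIT_202s0033g00410), MYBA2 (VIT_202s0033g00390) and MYBA3 (VIT_202s0033g00450) at the berry colour locus of chromosome 2, MYBA6 (VIT_214s0006g01290) and MYBA7 (VIT_214s0006g01340) on chromosome 14, and the late pathway genes UFGT (VIT_216s0039g02230) and GST4 (VIT_204s0079g00690). All 7 were among the 31843 genes of the deposited table, which also holds 232 transposable element (TE) families. RNA was sequenced from 3 samples of young leaf and 3 samples of embryogenic callus (EC) of Chardonnay, a white-berried cultivar and the only genotype in the comparison. EC is a mass of dedifferentiated, proliferating cells that can be turned into somatic embryos. It was raised from anthers and kept in the dark on solid medium, and each sample pooled cultures of several Petri dishes, whereas each leaf sample pooled several small leaves taken from the vines that had supplied the anthers. Tissue, light and culture therefore changed together and cannot be told apart in any difference given below. The RNA was depleted of ribosomal RNA, and the authors counted reads per gene against the PN40024 reference genome.

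Anthocyanins are the red and blue flavonoid pigments of the vine. In the last steps of their synthesis UFGT, a UDP-glucose:flavonoid 3-O-glucosyltransferase, adds a sugar to the unstable anthocyanidin, and GST4, a glutathione S-transferase, is required for moving the pigment towards the vacuole. These late genes are switched on by MYB transcription factors of the MYBA group, which act together with bHLH and WD-repeat partner proteins. White berries arose when the pair of active genes at the chromosome 2 locus was lost: the retrotransposon Gret1 inserted upstream of MYBA1, and MYBA2 carries mutations in its coding sequence. The chromosome 14 genes lie outside that locus and are known for pigmentation of vegetative organs.

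Counted reads were between 21914215 and 24209752 in all libraries except leaf replicate 3, which had 13123072. By the paper's own figures that library was sequenced to a number of read pairs within the range of the others. It had the lowest shares of reads mapped to PN40024 and of properly paired reads. Its TMM scaling factor, used in the model fits below, was 0.658, against 0.961 to 1.19 in the other libraries. Leaf replicate 3 also stood apart from the other leaf libraries across genes, with a Pearson's r of 0.893 and 0.902 on log2 counts scaled to library size against 0.995 between leaf replicates 1 and 2. Genes are not independent replicates, so these values carry no test. Values without this library are given beside the results that rest on it. Levels are reads per 1000000 counted reads (RPM), which are not corrected for gene length, so they compare libraries and not genes with one another. Intervals in brackets are exact 95% intervals of the count and cover counting error only. The table gives no coordinates, and its identifiers matched none of the RefSeq records used here (0 identifiers). Of the names, 4 occur as RefSeq symbols, with MYBA6 and MYBA7 on chromosome 14, UFGT on chromosome 16 and GST4 on chromosome 4. Without a match, the marker genes meant to check the tissues could not be looked up, and the labels leaf and EC stand unchecked.

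MYBA6 was the clearest case of a regulator read in leaf and not in EC. It had 558 counts in leaf replicate 1, 542 in leaf replicate 2, 0 in leaf replicate 3 and 0 in each EC library. The corresponding leaf levels were 23.6 RPM (21.7 to 25.6) and 24.7 RPM (22.7 to 26.9), which differ by less than their counting intervals. The exact upper limit of a count of 0 was 0.281 RPM in leaf replicate 3 and 0.152 to 0.166 RPM in the EC libraries. The floor of 3 counts used for folds was 0.229 RPM in leaf replicate 3 and 0.124 to 0.135 RPM in EC. Leaf tissue thus held 16.1 ± 13.96 RPM (SD, n = 3) and EC 0 RPM, at least 123-fold higher in leaf when 3 counts per library are taken as the floor of EC. Without leaf replicate 3 the leaf level was 24.2 ± 0.800 RPM (SD, n = 2) and the bound 185-fold. Because 1 leaf library lay at 0 with EC, the libraries of the tissues overlapped, and the two-sided exact permutation test gave p = 0.4 (n = 3 per tissue).

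MYBA7, the other chromosome 14 member, showed the same distribution over libraries at lower counts. The 3 leaf libraries held 37, 48 and 0 counts, and those of EC 1, 0 and 0. Its level was 1.56 RPM (1.10 to 2.16) and 2.19 RPM (1.61 to 2.90) in the first pair of leaf libraries. Pooled over libraries, 85 leaf counts stood against 1 EC count, a ratio of 100.04 between the count rates with an exact interval of 17.5 to 3997. Leaf replicate 3, at 0, again fell among the EC libraries (two-sided exact permutation test, p = 0.4, n = 3 per tissue). Without it the ratio was 129 (22.5 to 5149).

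The colour locus genes of chromosome 2 were near the limit of detection in every library. MYBA1, the berry regulator whose promoter carries Gret1 in white cultivars, had 9, 9 and 0 counts in leaf and 0, 1 and 0 in EC, or at most 0.411 RPM (0.188 to 0.780). MYBA2 had 2 counts in leaf replicate 2 and 0 in the remaining libraries, so both tissues were at or under 3 counts per library and no ratio is given. MYBA3 had 7, 9 and 0 counts in leaf and 0 in EC. In leaf replicates 1 and 2 MYBA1 and MYBA3 were therefore read in both libraries, whereas in leaf replicate 3 and EC they were absent apart from 1 count.

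For MYBA1 the pooled counts of 18 in leaf and 1 in EC gave a ratio of 21.2 between the count rates, with an exact interval of 3.34 to 883, and of 27.3 (4.31 to 1137) without leaf replicate 3. For MYBA3 leaf was at least 1.81-fold higher than the EC floor, and at least 2.71-fold higher without leaf replicate 3. At a depth of 13123072 counted reads, leaf replicate 3 would have held 5.19 MYBA1 counts and 4.61 MYBA3 counts at the rate of the other leaf libraries, so its zeros rest on few expected counts. For both genes leaf replicate 3 overlapped with EC (two-sided exact permutation test, p = 0.4 for each, n = 3 per tissue), and without it the tissues did not overlap. MYBA1, MYBA2 and MYBA3 are closely similar copies, and a read that fits more than 1 of them may have been divided or dropped in counting, so the division of counts among them is uncertain.

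Of the late genes, GST4 was read in both tissues, whereas UFGT did not exceed the floor of 3 counts in any EC library. The leaf libraries of each lay above all EC libraries. GST4, the glutathione S-transferase of anthocyanin transport, had 605, 496 and 46 counts in leaf and 9, 8 and 10 in EC. These correspond to 25.6, 22.6 and 3.51 RPM in leaf and 0.399, 0.359 and 0.413 RPM in EC. Leaf averaged 17.2 ± 11.99 RPM, whereas EC averaged 0.390 ± 0.0280 RPM (SD, n = 3 each). The EC libraries were alike within counting error, and leaf replicate 3 lay between them and the other leaf libraries. With 3 libraries per tissue a two-sided exact permutation test cannot go below p = 0.1, which is the value it gave.

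UFGT, the glucosyltransferase, had 95, 59 and 4 counts in leaf and 0, 2 and 3 in EC. The leaf levels, in replicate order, were 4.02 RPM (3.25 to 4.91), 2.69 RPM (2.05 to 3.47) and 0.305 RPM (0.0830 to 0.780), and no EC library exceeded 0.124 RPM. All leaf libraries were above all EC libraries (two-sided exact permutation test, p = 0.1, n = 3 per tissue), although the interval of leaf replicate 3 reached those of EC. The pooled count rates differed 37.2-fold (15.6 to 116), and 46.7-fold (19.6 to 146) without leaf replicate 3. Every leaf library was above every EC library for 2 of the 7 genes, GST4 and UFGT, and likewise for 21.9% of the features with a count and 24.4% of the features that passed the filter described below, so for UFGT and GST4 this order alone is common among genes.

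**Figure D1:**
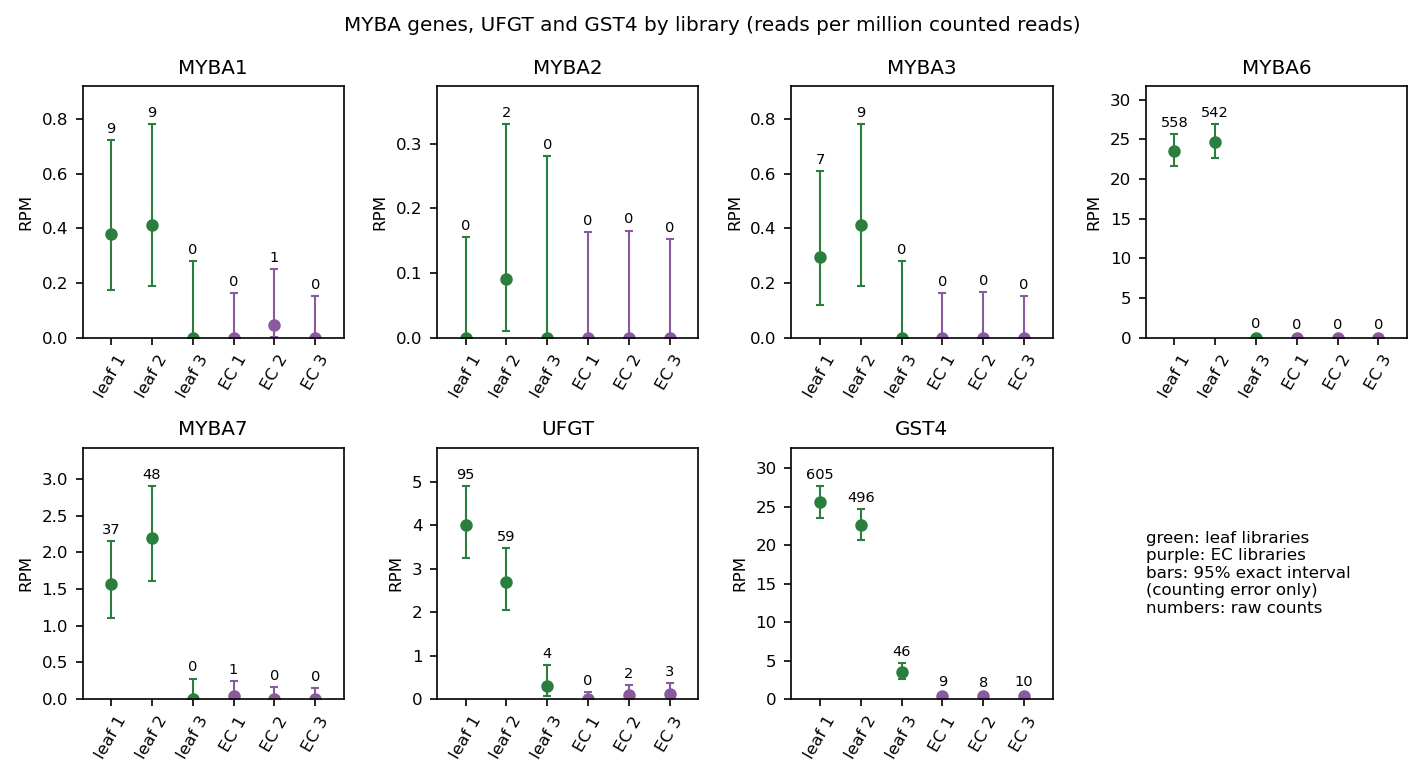
RPM of the 7 genes (vertical axes from 0, scaled per gene) in the 3 leaf libraries (green) and 3 EC libraries (purple), with exact 95% intervals as bars and the raw count above each point. MYBA6 stands at 23.6 and 24.7 RPM in leaf replicates 1 and 2 and at 0 in the other libraries, and GST4 in leaf replicate 3, at 3.51 RPM, lies between the other leaf libraries and EC.

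Leaf and EC were then compared in 1 model over all genes and TE families by the quasi-likelihood F-test of edgeR. A gene was called when it differed at least 2-fold and its Benjamini-Hochberg adjusted p lay below 0.05. Of the 7 genes only GST4 passed the filter on low counts. That filter asks for a set minimum level in 3 libraries, so a few reads in a library do not suffice. GST4 was lower in EC, with a log2 fold change of −5.78 (standard error 0.73, adjusted p = 0.00200, edgeR), in a background of 25.1% of the tested features called lower in EC. Without leaf replicate 3 the change was −6.20 (standard error 0.16, adjusted p = 6.25e-07, edgeR). In both fits GST4 passed the filter only through leaf libraries, where it is high, so its call says nothing against the background. The other 6 genes had no test in the fit of all libraries.

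When no filter was applied, 4 of the 7 genes were called lower in EC, against 21.8% of all features in that fit. These were GST4, UFGT (log2 fold change −5.22, standard error 1.13, adjusted p = 0.0135, edgeR), MYBA7 (−6.21, standard error 1.65, adjusted p = 0.0269, edgeR) and MYBA6, which was just under the limit (adjusted p = 0.0498, edgeR). MYBA1 and MYBA3 were just over it (adjusted p = 0.0506 and 0.0565, edgeR), and MYBA2 had an adjusted p of 0.247. DESeq2, the tool of the study's methods, also called 4 of the 7 genes lower in EC, against 27.6% of its tested features, and they were the same genes. In no fit was any of the 7 genes called higher in EC (0 genes).

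Leaving out leaf replicate 3 lowered the standard errors and raised the number of calls. With the filter in place, the genes tested and called lower in EC, in a background of 29.4% of features, were GST4, MYBA6 (adjusted p = 8.76e-06, edgeR), MYBA7 (log2 fold change −6.80, standard error 0.65, adjusted p = 1.09e-04, edgeR) and UFGT (−5.70, standard error 0.56, adjusted p = 1.23e-04, edgeR). GST4, MYBA6, MYBA7 and UFGT passed that filter only through the leaf libraries, where they are high. How many of the tested genes were called therefore says nothing against the background. With neither the filter nor leaf replicate 3, a combination chosen after seeing the data, 6 of the 7 genes were called lower in EC against 26.0% of features. The additions were MYBA1 (adjusted p = 0.00259, edgeR) and MYBA3 (adjusted p = 0.00414, edgeR), while MYBA2 was not called (adjusted p = 0.215, edgeR). At its depth, leaf replicate 3 was not distinguishable from EC for any MYBA gene.

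The position of leaf replicate 3 can be expressed against the other leaf libraries. At the rate of leaf replicates 1 and 2 it would have held 317 MYBA6 counts and 24.5 MYBA7 counts, and it held 0 of each, which is at least 106-fold and at least 8.21-fold lower at a floor of 3 counts. GST4 stood at 14.5% of their mean level and UFGT at 9.08%. The count rates of leaf replicates 1 and 2 exceeded that of leaf replicate 3 by 6.89-fold for GST4 (exact interval 5.13 to 9.47) and 11.1-fold for UFGT (4.24 to 41.2). All these folds and percentages divide by all counted reads. Scaling with the TMM factor of leaf replicate 3 (0.658) would make its deficits smaller, and such values were not computed. Among 19467 genes with at least 20 counts in both of the other leaf libraries, the median level in leaf replicate 3 was 62.6% of theirs (quartiles 35.1% and 104%). Of these genes 11.4% had a share as low as that of GST4, 8.36% as low as that of UFGT, and 1.83% had 0 counts like MYBA6 and MYBA7.

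The pattern of MYBA6 was uncommon among well-read genes. Of 9558 genes with at least 400 counts in leaf replicates 1 and 2, a limit chosen after its counts were seen, 23 had 0 counts in leaf replicate 3 and 4 had 0 counts there and in all EC libraries, MYBA6 among them. These counts compare 1 library with 2 and have no replicate check. What set leaf replicate 3 apart was not tested.

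Rows adjacent to the members show how local these levels were. At the colour locus, 12 further rows lie between VIT_202s0033g00350 and VIT_202s0033g00480, and 7 of them had no count in any library. None of the 12 passed the filter on low counts in the fit of all libraries (0 rows tested). VIT_202s0033g00470 had 9, 18 and 18 counts in leaf and 0 in EC. Unlike MYBA1 and MYBA3, it was read in leaf replicate 3 as well, so the locus was not silent throughout in that library. VIT_202s0033g00420 had 5, 5 and 3 counts in leaf and 9, 2 and 5 in EC, with overlapping tissues.

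On chromosome 14, 17 further rows lie between VIT_214s0006g01200 and VIT_214s0006g01400, of which 9 were tested, 3 were called lower in EC and 2 higher, against 25.1% and 17.3% of all features tested. Of those called, VIT_214s0006g01220 passed the filter only through leaf, and VIT_214s0006g01210 and VIT_214s0006g01370 only through EC. In each case that is the tissue where the row is high, so these calls say nothing against those shares. VIT_214s0006g01280, the row just before MYBA6, had 135, 79 and 1 counts in leaf and 0 in EC, and was called without leaf replicate 3 (adjusted p = 2.23e-04, edgeR). Beside MYBA7, it is the only row of this span that followed the library pattern of MYBA6. Whether its reads overlap those of MYBA6 cannot be judged from the table, since the strand setting of the counting is not given in the sources used here.

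The rows of this span that were called in the fit of all libraries had other patterns over the libraries. VIT_214s0006g01370, which follows MYBA7 in identifier order after 1 nearly silent row, was higher in EC, with 12, 6 and 3 counts in leaf and 378, 600 and 422 in EC (log2 fold change 5.44, standard error 0.38, adjusted p = 4.46e-04, edgeR). The remaining calls were VIT_214s0006g01210, higher in EC (log2 fold change 2.55, adjusted p = 0.0128, edgeR), and VIT_214s0006g01220, VIT_214s0006g01230 and VIT_214s0006g01250, lower in EC (−2.53, −1.36 and −2.34, with adjusted p = 0.0114, 0.00689 and 0.00115, edgeR). VIT_214s0006g01250 had 752, 546 and 166 counts in leaf and 124, 138 and 157 in EC. These 5 calls held without leaf replicate 3, where VIT_214s0006g01370 stood at 5.40 and VIT_214s0006g01250 at −2.50. There VIT_214s0006g01390 and VIT_214s0006g01400 were called higher in EC as well (log2 fold changes 1.00 and 1.27, adjusted p = 9.27e-04 and 7.39e-04, edgeR). Low EC levels were thus found in part of the chromosome 14 span and not along it.

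**Figure D2:**
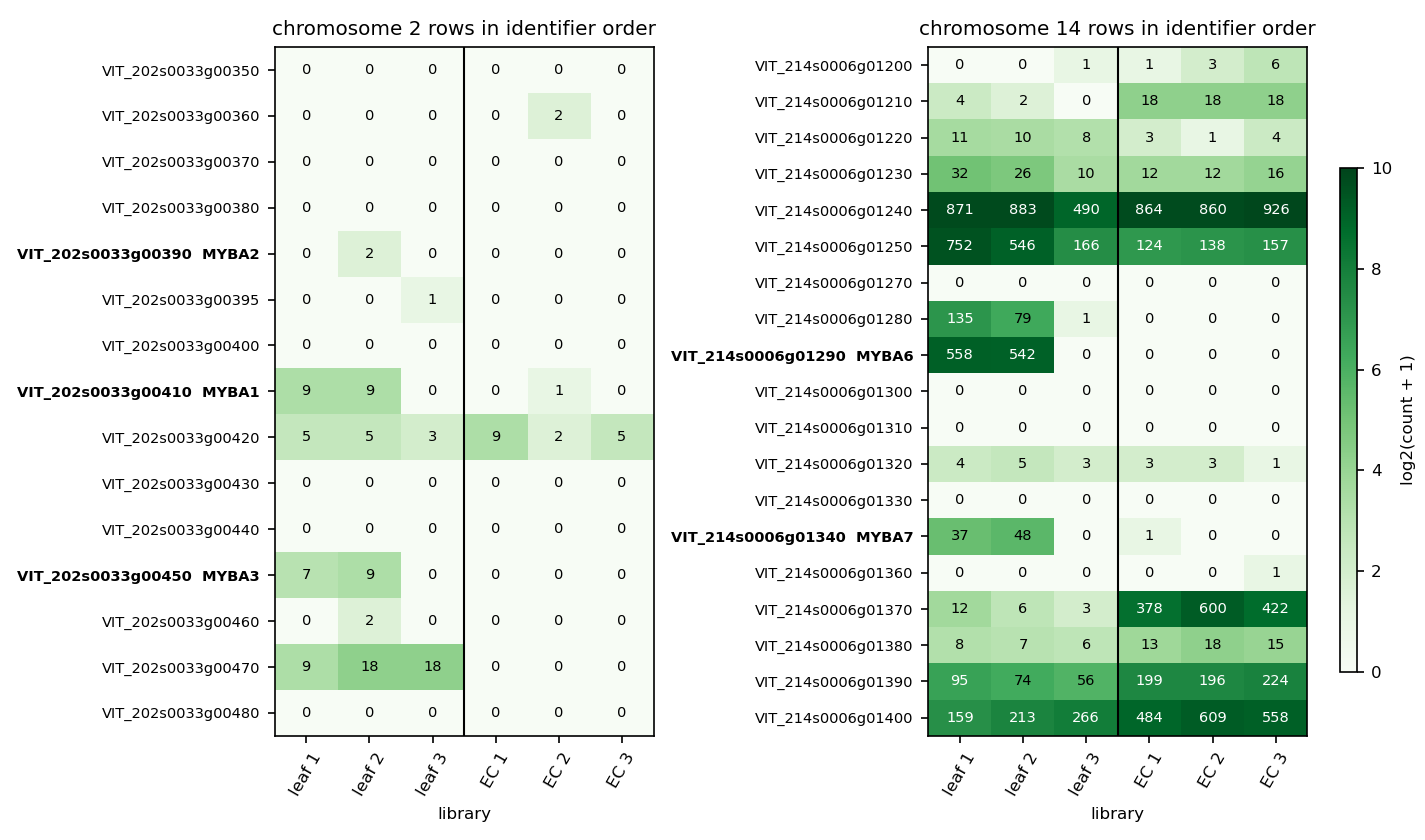
Raw counts per library (numbers, shaded by log2(count + 1)) of the rows around the colour locus members on chromosome 2 and around MYBA6 and MYBA7 on chromosome 14, in identifier order, with leaf libraries left and EC libraries right of the line. VIT_214s0006g01280 and MYBA6 are read in leaf replicates 1 and 2 and at 1 and 0 counts in leaf replicate 3, and VIT_214s0006g01370 is read mainly in EC.

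The rows next to the late genes were viewed after the values had been seen. Beside UFGT, VIT_216s0039g02220 had 4013, 3865 and 1658 counts in leaf and 8555, 8382 and 9482 in EC, and VIT_216s0039g02240 had 854, 866 and 302 in leaf and 969, 890 and 919 in EC. Neither was called. Beside GST4, VIT_204s0079g00680 was lower in EC (log2 fold change −2.70, standard error 0.38, adjusted p = 0.00283, edgeR), and also without leaf replicate 3 (−2.19). It had 2877, 2388 and 2308 counts in leaf, so it did not share the low count of GST4 in leaf replicate 3.

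Pathway context was taken from 27 further identifiers, listed from general knowledge of grapevine flavonoid genes. No table used here pairs them with names, so they are given by identifier, and their place in a list could not be checked. Of these, 25 were in the table and all 25 were tested. The number called lower in EC was 10 and the number called higher 0, against a background of 25.1% and 17.3% of tested features. Of the 10, VIT_211s0016g01300 and VIT_203s0017g00870 passed the filter only through leaf libraries, where they are high. Their calls therefore say nothing against that background. The median log2 fold change was −2.55 over the listed genes and −0.04 over all features tested. Without leaf replicate 3, 22 were called lower in EC and 0 higher, against 29.4% and 21.6% of features.

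Among 3 listed partners of the MYB factors (bHLH and WD-repeat), VIT_207s0104g00090 was lower in EC (log2 fold change −2.60, standard error 0.28, adjusted p = 0.00124, edgeR). It had 1742, 1775 and 471 counts in leaf and 254, 411 and 293 in EC, and its leaf libraries were above those of EC. VIT_215s0046g02560, with 4447, 5163 and 298 counts in leaf and 1351, 1394 and 1563 in EC, was not called (adjusted p = 0.0978, edgeR), since leaf replicate 3 lay below EC. VIT_216s0098g00870 had 279, 337 and 154 counts in leaf and 326, 310 and 326 in EC, and its log2 fold change of −0.37 did not pass (standard error 0.19, adjusted p = 0.155, edgeR). Of the 3 partners, then, only 1 was called lower with all libraries, against 25.1% of features, and 2 without leaf replicate 3, against 29.4%. Counts out of 3 genes cannot be told from those shares.

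Of 10 listed enzymes of the core pathway, which make the anthocyanidin that UFGT acts on, 9 were in the table. These 9 had 0 calls in the fit of all libraries, against 25.1% of features called lower in EC. Without leaf replicate 3 they had 9 calls lower in EC, against 29.4%. DESeq2 called 4 of them lower with all libraries, against 27.6%. In RPM leaf replicate 3 was below every EC library for all 9 of them, at 0.998% to 13.1% of the mean of leaf replicates 1 and 2, while EC held 4.37% to 44.7% of it. GST4 had the opposite order, with leaf replicate 3 above every EC library. The other 6 genes had an EC library at 0 and could not have followed the order of the core enzymes. For VIT_218s0001g12800 leaf held 5688, 7452 and 166 counts and EC 2209, 4201 and 2454 (log2 fold change −0.92, standard error 0.95, adjusted p = 0.446, edgeR). For VIT_202s0025g04720 leaf held 21742, 27461 and 329 counts and EC 1557, 3512 and 1717 (−3.18, standard error 1.21, adjusted p = 0.0699, edgeR).

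For both of these enzymes the EC libraries lay between leaf replicate 3 and the other leaf libraries. GST4 instead had its EC libraries at the bottom, and these orders were described and not tested.

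Among 7 listed repressor and proanthocyanidin MYB genes, 6 were lower in EC, against the 25.1% of features given above, with log2 fold changes of −4.04 (VIT_201s0011g04760), −4.26 (VIT_214s0006g01620), −3.53 (VIT_206s0004g00570), −3.25 (VIT_215s0046g00170), −6.32 (VIT_211s0016g01320) and −9.17 (VIT_211s0016g01300). Their adjusted p-values lay between 6.61e-04 and 0.0461 (edgeR). VIT_211s0016g01300 passed the filter only through leaf libraries, where it is high, so its call says nothing against that background. Without leaf replicate 3 this also held for VIT_211s0016g01320. The count of MYB genes lower in EC stayed at 6 without leaf replicate 3, against 29.4% of features, with log2 fold changes between −9.70 and −2.93. It was 4 with limma-voom and on leaving out leaf replicate 1, leaf replicate 2 or any EC library. In those fits the genes called in either direction ranged from 7015 of 22273 (without EC replicate 3) to 9077 of 21336 (limma-voom). It was 5 with library sizes alone and with the replicate number as a block, where 10072 and 7822 of 21336 genes were called. With 10 counts required in every library it was 4 of 5 tested genes, where 5509 of 16178 genes were called. In leaf replicate 3 these MYB genes split, with VIT_206s0004g00570 at 173% and VIT_201s0011g04760 at 92.7% of the level in leaf replicates 1 and 2, and VIT_211s0016g01320 at 0.363%. Of the 3 listed proanthocyanidin branch enzymes, VIT_201s0011g02960 (−4.91, adjusted p = 0.0229, edgeR) and VIT_217s0000g04150 (−3.44, adjusted p = 9.98e-04, edgeR) were lower in EC, a count of 2 against 25.1% of features. It was 1 with limma-voom, with the replicate number as a block and without leaf replicate 1, leaf replicate 2, EC replicate 1 or EC replicate 3. In those fits 7015 to 9077 of all genes were called in either direction. It was 3 with DESeq2 and without leaf replicate 3, against 27.6% and 29.4% of features, and counts out of 3 genes say little beside such shares. Of 4 genes listed for late decoration and transport of anthocyanins, 3 were in the table. Among them VIT_203s0017g00870 was lower in EC, with 83, 67 and 30 counts in leaf and 0, 2 and 0 in EC (−6.82, standard error 0.79, adjusted p = 0.00157, edgeR). It too passed the filter only through leaf libraries, so its call says nothing against the background of 25.1%. In leaf replicate 3 it stood at 69.6% of the level of the other leaf libraries, whereas VIT_216s0050g00930 and VIT_216s0050g00910 stood at 20.7% and 10.8%, nearer to GST4 and UFGT. VIT_216s0050g00910 had 473, 335 and 25 counts in leaf and 688, 658 and 699 in EC, so that its EC libraries lay above those of leaf in RPM, and it was not called (log2 fold change 0.92, adjusted p = 0.274, edgeR). VIT_216s0050g00930 was just over the limit (−1.47, adjusted p = 0.0502, edgeR). Both were named after their values were seen.

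**Figure D3:**
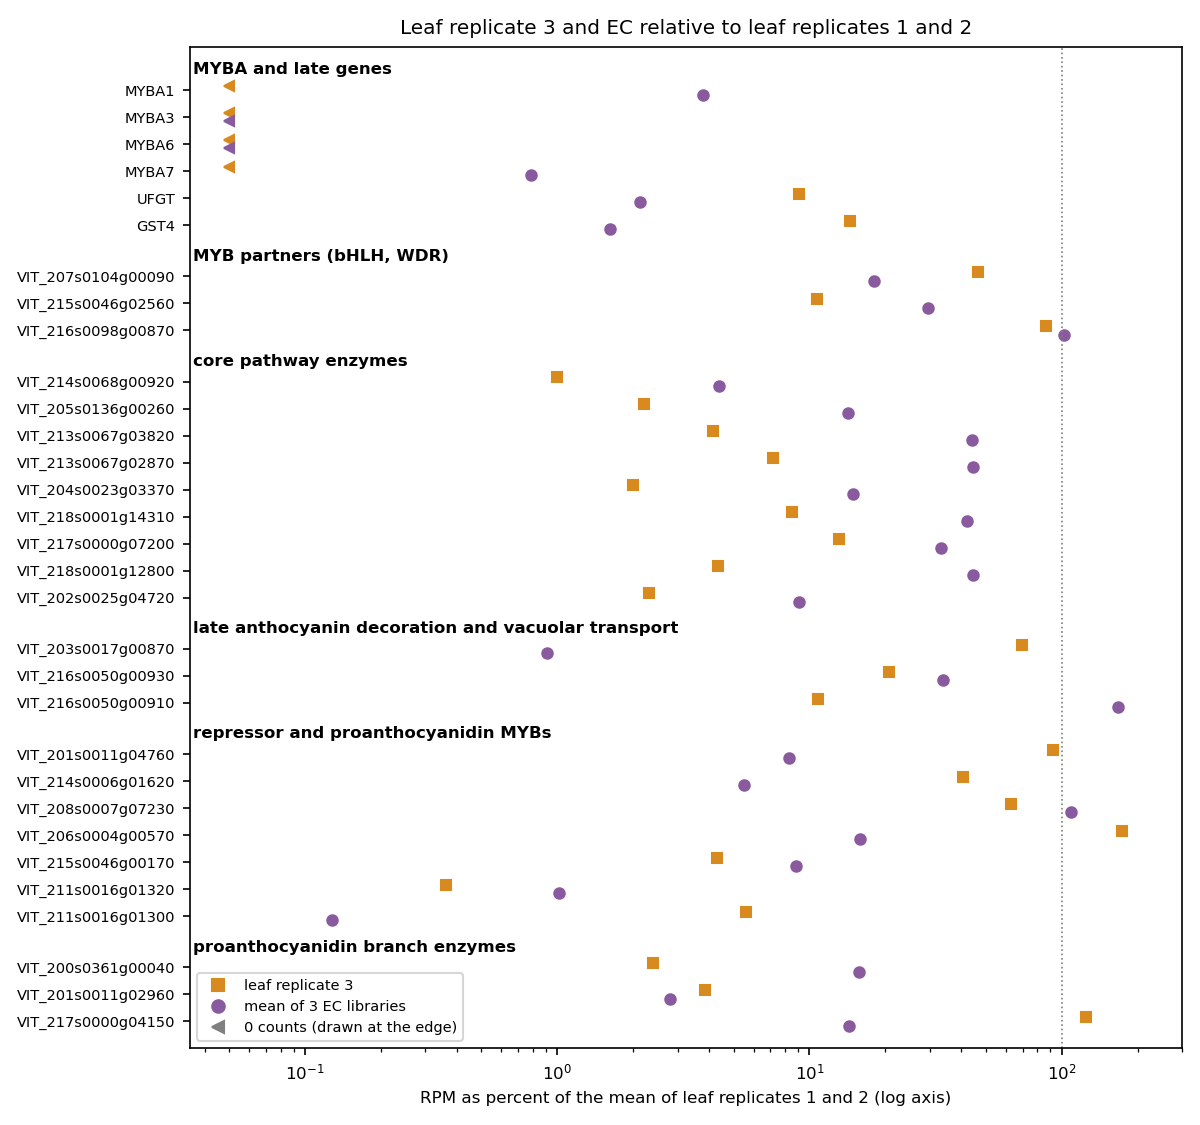
Level in leaf replicate 3 (orange) and mean level of the 3 EC libraries (purple) as a percent of the mean of leaf replicates 1 and 2, on a log axis, for the MYBA and late genes (without MYBA2, which had 2 counts) and the listed pathway genes, with 0 counts drawn as triangles at the left edge. GST4 and UFGT stand at 14.5% and 9.08% in leaf replicate 3, above their EC levels, and the 9 core enzymes stand at 0.998% to 13.1% there, below theirs.

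The genes whose log2 levels over the 6 libraries were most like those of GST4 were VIT_213s0064g00380, VIT_214s0030g00710 and VIT_213s0019g01920, each with a Pearson's r of 1.00. Of 21335 genes compared, 2588 had an r above 0.95, so many genes shared this likeness. It mostly restates that leaf libraries lay above EC libraries, with leaf replicate 3 between EC and the other leaf libraries. VIT_213s0019g01920 had 79, 64 and 6 counts in leaf and 0 in EC. No other member of the 7 passed the filter, and no likeness was computed for them.

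The table also counts Gret1, the retrotransposon of the white MYBA1 allele, as the TE family Gypsy-Gret1, which was viewed after its values were known. The family count sums all genomic copies and does not measure the copy at MYBA1. It had 479, 446 and 1073 counts in leaf and 786, 802 and 940 in EC, or 20.3, 20.4 and 81.8 RPM in leaf and 34.8, 35.996 and 38.8 RPM in EC. Leaf replicate 3 was the highest of all libraries and leaf replicates 1 and 2 were the lowest. The log2 fold change was −0.83 (standard error 0.76, adjusted p = 0.388, edgeR) with all libraries and 0.58 (standard error 0.08, adjusted p = 5.19e-04, edgeR) without leaf replicate 3, so its direction turned on that library.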

How the data were processed

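The deposited table holds raw counts per gene of the V2.1 annotation and per TE family for 6 libraries, with 0 further columns of values. Per the methods of the study, the authors trimmed the reads, removed those on tRNA and rRNA, mapped the rest to PN40024 12X with HISAT2 allowing multiple positions, and counted with TEtranscripts, leaving out a pair of chloroplast-like genes. Samples were grouped by the labels. Nothing states whether the leaf samples came from separate vines, so p-values measure the spread between these samples. All features were fitted with edgeR 4.0.16 in R 4.3.3 (TMM, filterByExpr with a minimum count of 10 and minimum total of 15, robust glmQLFit, glmQLFTest, Benjamini-Hochberg over 21550 features). Standard errors were derived from the log2 fold change and its F statistic. RPM were counts divided by all counts of the library. A count of 3 was the floor, which is 0.124 to 0.229 RPM. Exact intervals and permutation tests used scipy 1.17.1. The code was tested on simulated data. Alternatives were DESeq2 1.42.0 and its size factors, limma-voom 3.58.1, library sizes alone, other filters, other denominators for RPM, the replicate number as a block, and each library left out. All members are named, with every listed pathway gene that was called, 5 listed genes in any case, and called neighbours. The members, lists and tests were chosen with earlier results of these data known. Sequences and coordinates were not used here.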

Additional observations from a re-analysis of the deposited data

How the results depend on the processing

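GST4 kept its direction and its call under all 13 alternatives that could test it, with log2 fold changes between −6.20 and −5.43. A filter of 10 counts in each library left none of the 7 genes to test. The number of member genes called was 1 in the fit reported, against 25.1% of features called lower in EC, and 4 with DESeq2, against 27.6%. It was 4 with no filter on low counts, against 21.8%. With neither the filter nor leaf replicate 3, chosen after seeing the data, it was 6 against 26.0%. It was 1 to 4 with single libraries left out, with the 4 reached without leaf replicate 3, against 29.4%. In those fits the genes called in either direction ranged from 7015 of 22273 (without EC replicate 3) to 11400 of 22322 (without leaf replicate 3). Wherever the filter was applied, the members tested passed it only through leaf libraries, so their counts say nothing against these shares. The number of listed pathway genes called, 10 in the fit reported, was 17 with DESeq2 and 22 with neither the filter nor leaf replicate 3, against the same shares. It was 7 to 22 with single libraries left out, against the same numbers of all genes called. Of all genes 9070 were called, and 5509 with 10 counts required in every library, a filter that tests fewer genes. Scaling by TMM put the median tested feature at −0.04 on the log2 scale and scaling by library size at 0.41, where GST4 stood at −5.45. The RPM difference between EC and leaf kept its sign for the 7 genes under every denominator and left-out library, except for MYBA2, which lay between −0.046 and 0 and was 0 without leaf replicate 2. Deviations from the tissue means had r of −0.01, 0.10 and 0.10 between same-numbered libraries. With 3 libraries per tissue these values cannot decide whether the numbers pair the samples. With the replicate number as a block, GST4 had a log2 fold change of −5.51 and 8 listed genes were called, against 7822 of all 21336 genes tested.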
